A study of Mus musculus with 2 samples.

Results

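Isolated regions are small groups of neighbouring array probes that stand far from any other group of at least 2 probes on the same chromosome. On the array, 528 of them were found among 19365 probe regions. They were chosen by position alone, from probe starts on mouse genome build mm8. Neighbours whose starts lay no more than 500 bp apart were joined into a region of at least 2 probes, and an isolated region had 2 to 9 probes, lay on an autosome and had no other region of any size starting within 300 kb on either side. The other 17469 autosomal regions of 2 to 9 probes served for comparison, so 2.93% of autosomal regions of that size were isolated. Isolation refers to what the array covers: the working name calls these regions CpG islands, but gene annotation, CpG island annotation and sequence on mm8 were not used here, so the name could not be checked and the regions are called by their rule.

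Hypothalamic DNA of female FVB/NJ mice at postnatal day 180 was compared between SL mice, which had suckled in litters reduced to 4 pups as a model of early postnatal overnutrition, and C mice from control litters of 9. Each pool held DNA of 5 hypothalami, with 2 pools per group, and the strain, sex and age were shared by both groups. Array 1 held SL in Cy5 beside C in Cy3; array 2 held SL in Cy3 beside C in Cy5. The sources used here do not say which pools each array received, so the spread between the arrays may be technical only, and pooling removes the spread between animals. The hypothalamus, which controls appetite and body weight, is a mixture of neurons and glia, so every value is an average over its cell types.

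CpG islands are stretches of DNA rich in CpG dinucleotides. Most of them lie at promoters and carry little methylation, whereas islands far from promoters are methylated more often and in a more tissue-dependent way. Gene-poor stretches of mammalian chromosomes hold few islands, and many genes that do lie there are active in development or in neurons. In the assay used, DNA was cut first by SmaI, which needs unmethylated DNA and leaves blunt ends, and then by XmaI, which cuts the same recognition site regardless of methylation and leaves overhangs to which PCR adaptors are ligated. A fragment is therefore amplified when both of its ends were methylated. The signal is a relative amount of fragment and not a methylation percentage, and the brightness of a probe also depends on its own sequence.

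Over all genomic probes, 94.57% to 95.88% were well above background per channel, by the scanner software's own flag, and none was saturated. The log2 ratios of SL over C correlated negatively between the arrays across regions, with Pearson's r = -0.457 in the 440 isolated regions that could be tested and -0.422 in 16773 other regions. These values describe regions that share arrays and pools, and they follow the dyes in the labels; without the exchange of dyes the sign on array 2 would turn.

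The isolated regions were much dimmer than the others in every channel. In C, the median signal of an isolated region was 385.3 on array 1 and 182.0 on array 2, against 2017 and 1230 in the other regions. In SL it was 315.8 on array 1 and 217.9 on array 2, against 1804 and 1188. The ranges overlapped almost wholly, from 9.34 to 43110 in isolated regions and from 9.36 to 55700 in the others for C on array 1, so the groups differed in where most regions lay. The median log2 signal in C was lower by 2.39 on array 1 (5.24-fold) and by 2.76 on array 2 (6.76-fold), a mean difference of -2.57 ± 0.26 (SD, n = 2 arrays). In SL the mean difference was -2.48 ± 0.05 (SD, n = 2 arrays). Both differences were several times the spread between the arrays, but the two-sided exact sign-flip p was 0.5, the smallest that 2 arrays allow.

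**Figure D1:**
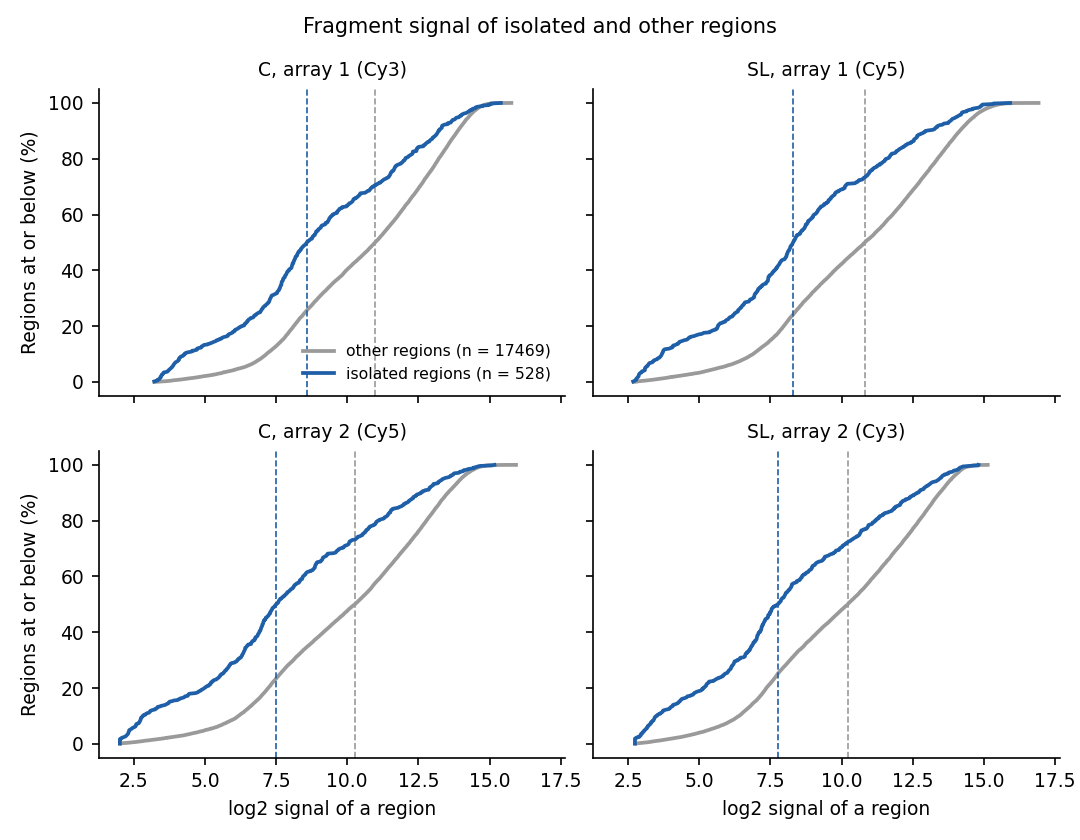
Cumulative share of regions (vertical axis, percent) by mean log2 signal (horizontal axis) in each of the 4 channels, for 528 isolated regions (blue) and 17469 other autosomal regions of 2 to 9 probes (grey); dashed lines mark medians. The blue curve lies to the left in every channel, with C medians of 8.59 against 10.98 on array 1 and 7.51 against 10.26 on array 2.

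Dimness was a matter of many regions and not of a few. On array 1, 259 isolated regions (49.1%) had a C signal below the first quartile of the other regions, and on array 2 they were 273 (51.7%). Still, 73 (13.8%) and 59 (11.2%) lay above the third quartile, so a bright minority was present. No probe was well above background in any of the 4 channels in 46 isolated regions (8.71%), against 229 other regions (1.31%). Of these 46, 35 had 4 probes, 7 had 3 and 4 had 2, and they were found on 15 chromosomes. In 346 isolated regions (65.5%) all 4 channels had every probe flagged as above background, against 87.3% of the other regions.

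Signal order among the isolated regions was nearly the same on both arrays. Their C signals correlated between the arrays (Pearson's r = 0.979, Spearman's rho of 0.975), and SL correlated with C on the same array with r = 0.968 (array 1) and 0.988 (array 2). These are descriptions across 528 regions that share probes, and probe brightness enters both sides of each.

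Fragment signal was lower at larger distances, already well before the limit of 300 kb. For other regions whose nearest neighbour started 10 to 30 kb away, the median C signal was 2863 on array 1 and 1816 on array 2. At 30 to 100 kb it was 1463 and 814.6, and at 100 to 300 kb it was 714.1 and 381.3. Among isolated regions it was 432.5 and 195.8 in the 197 with a nearest neighbour at 300 to 400 kb, and 438.7 and 218.4 in the 155 at 400 to 600 kb. It was 341.3 and 163.5 in the 104 at 600 to 1000 kb, and 327.6 and 124.4 in the 72 beyond 1000 kb. The course was not strictly downward: regions with a neighbour within 10 kb were dimmer than those at 10 to 30 kb, and 400 to 600 kb was slightly above 300 to 400 kb on both arrays. The share of regions with no probe well above background in any channel was 0.59% at 10 to 30 kb, 2.76% at 100 to 300 kb, 6.09% at 300 to 400 kb and 16.7% beyond 1000 kb. Median probe length went from 51.5 bases at 10 to 30 kb to 58.9 beyond 1000 kb. Within regions whose probes averaged above 56 bases, the median C signal on array 1 was 2063 at 10 to 30 kb, 968.8 at 100 to 300 kb and 506.6 at 300 to 400 kb. Median probe length still differed among these 3 bins, at 58.25, 59.0 and 59.5 bases. Beyond that these long-probe regions showed no steady fall: the medians were 387.4, 269.2 and 406.2 on array 1, and 113.2, 85.4 and 101.6 on array 2, in the 3 bins beyond 400 kb.

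**Figure D2:**
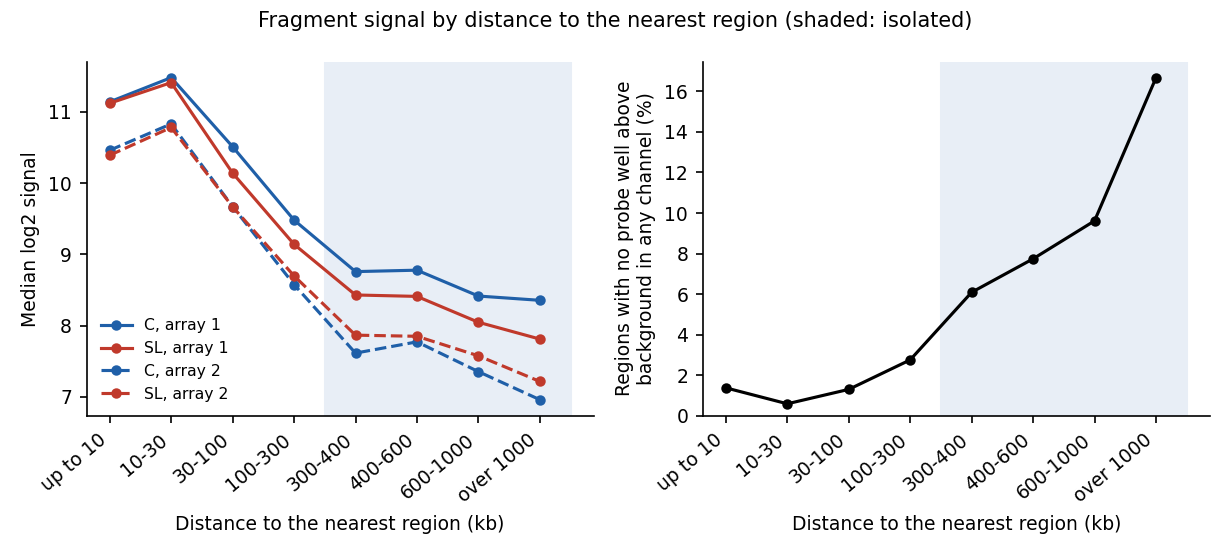
Left, median log2 signal of autosomal regions of 2 to 9 probes by distance to the nearest region (kb), for C (blue) and SL (red) on array 1 (solid) and array 2 (dashed); right, percent of regions with no probe well above background in any channel. Isolated regions are shaded; every channel is lower there than in all bins below 300 kb, and the share on the right rises from 6.09% to 16.7%.

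Just inside the limit, the 2 isolated regions with the closest neighbours, on chromosome 12 at 117976418 to 117976748 (300.6 kb) and on chromosome 2 at 6789534 to 6789832 (301.2 kb), had C signals on array 1 of 306.0 and 158.6. The 2 regions just outside it, both on chromosome 13 at 299.7 kb from their nearest neighbour, had 66.2 (20405726 to 20406636) and 358.9 (20705475 to 20705952). On array 2 the C signals were 168.7 and 70.2 just inside the limit, and 29.6 and 14.1 just outside it. Cy3 was the brighter dye on both arrays in each of these regions. It was most so in the last one, with log2 ratios of SL over C of -3.39 and 3.48. There, only 1 of the 4 probes carried the background flag for C on array 2, so the size is uncertain.

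Probe length moved with isolation. The median over isolated regions of the mean probe length was 57.3 bases, against 52.5 in the others, and 286 isolated regions (54.2%) had a mean above 56 bases, against 26.6% of the others. Within that class the median C signal was 394.3 on array 1 and 120.7 on array 2 in isolated regions, against 1306 and 660.8. In the class above 48 and up to 52 bases the medians were 326.7 and 186.4 in 65 isolated regions, against 4491 and 3128. In the class above 52 and up to 56 bases the gap was smaller, at 1403 and 925.1 in 69 isolated regions against 3377 and 2239. Among the shortest probes, of up to 48 bases, the gap was smallest, at 297.1 and 172.5 against 560.2 and 341.7. With comparison regions matched on probe length the arrays gave differences of -1.70 and -2.15, averaging -1.92 ± 0.32 (SD, n = 2 arrays), so it was smaller but still present. Probe sequence was not used here, and its part in the dimness was not tested.

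Isolated regions were also dimmer at equal numbers of probes. The median region held 4 probes in both sets and spanned 524 bp in isolated regions, against 533 bp. Among regions of exactly 4 probes the median C signal was 499.9 on array 1 and 224.0 on array 2 in 339 isolated regions, against 3136 and 1954 in 8558 others. Regions of 3 probes showed the lowest medians, 227.3 and 85.4 in 85 isolated regions against 1429 and 819.1. Pairs of probes showed a smaller gap on both arrays, with 819.1 and 424.0 in 41 isolated regions against 1357 and 775.6. Matched on the number of probes, the mean difference was -2.66 ± 0.30 (SD, n = 2 arrays).

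Every autosome had dimmer isolated regions, and chromosomes differed in how many they held. Isolated regions made up 5.29% of the regions of 2 to 9 probes on chromosome 3, 5.24% on chromosome 14, 5.21% on chromosomes 1 and 13 and 1.19% on chromosome 11, one of the most gene-rich mouse chromosomes. The difference in median log2 C signal was below zero on all 19 autosomes on both arrays. It was largest on chromosome 4, at -3.23 on array 1 and -3.91 on array 2, and smallest on chromosome 9, at -0.51 and -0.69 over 16 isolated regions. On chromosome 14, 8 of 32 isolated regions had no probe well above background in any channel. Matched on chromosome, the mean difference was -2.25 ± 0.23 (SD, n = 2 arrays).

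**Figure D3:**
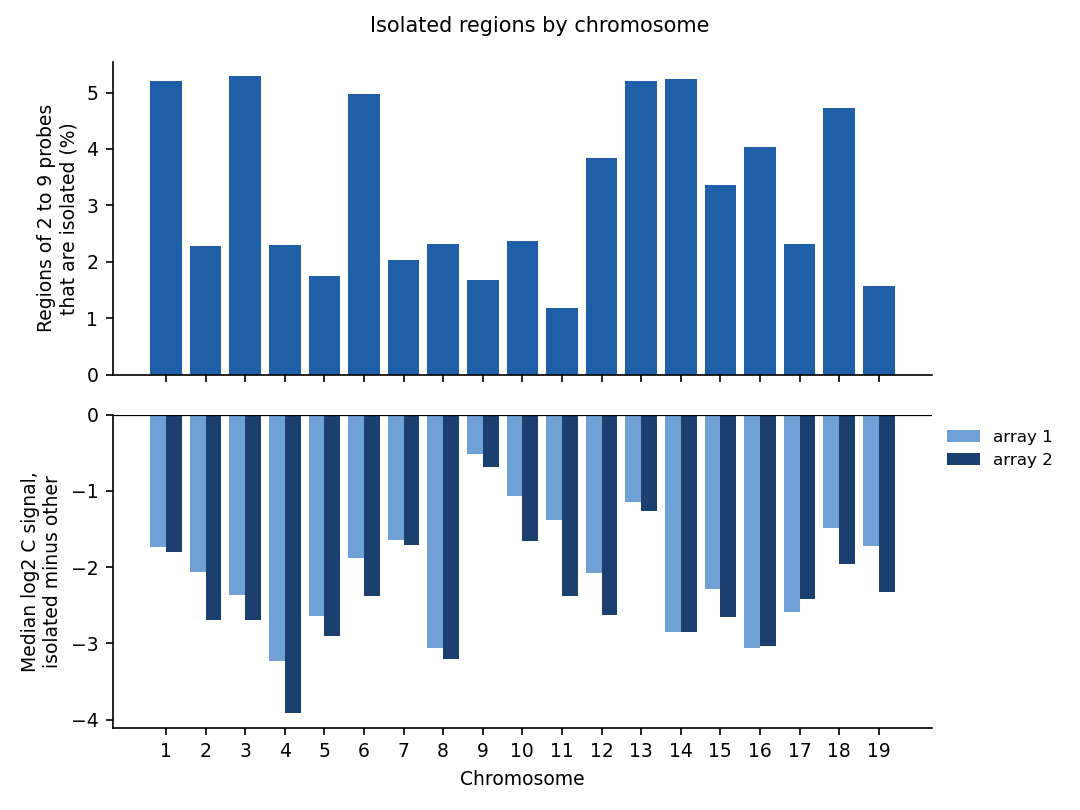
Top, percent of autosomal regions of 2 to 9 probes that are isolated, by chromosome; bottom, isolated minus other median log2 C signal on array 1 (light bars) and array 2 (dark bars). The share runs from 1.19% on chromosome 11 to 5.29% on chromosome 3, and all bars below are negative, least so on chromosome 9.

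Many isolated regions followed one another, which the rule itself favours. A region beside an isolated one already has more than 300 kb clear on that side. No expected number of runs is given here, so the counts only describe. The isolated regions fell into 332 runs with no other region in between: 213 stood alone, and 315 lay in 119 runs of 2 or more. The longest run held 8 regions over 4.42 Mb of chromosome 1 (139899577 to 144317823), with a median C signal of 201.0 on array 1 and 101.6 on array 2. A run of 7 on chromosome 14 (109287959 to 115764662) had 224.6 and 102.1. Signals differed widely between runs: 6 regions on chromosome 4 (74260325 to 79369988) had medians of 34.1 and 7.19, whereas 4 on chromosome 2 (95118936 to 101479697) had 5439 and 4351.

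The 5 regions with the largest distance to any neighbour had C signals from 206.4 to 2416 on array 1. The most remote lay on chromosome 15 at 21037529 to 21037987, 5925 kb and 3668 kb from its neighbours. Its C signal was 206.4 on array 1 and 87.4 on array 2, and its SL signal was 270.2 and 73.0. All 4 of its probes were well above background in each of the 4 channels. The region on chromosome 8 at 55576057 to 55576282 (nearest neighbour at 3162 kb) had C signals of 440.5 and 183.2 and SL signals of 376.7 and 271.8. An 8-probe region on chromosome 6 at 131353365 to 131354256 (2646 kb) had 388.6 and 282.1 in C, and 488.4 and 298.3 in SL. On chromosome 5 the region at 84525229 to 84525498 (2430 kb) was brighter, with 2416 and 1070 in C and 2081 and 829.3 in SL. All its 4 probes were lower in SL on both arrays, by 0.28 on the log2 scale (mean -0.28, SE 0.31, n = 2 arrays), with an adjusted p of 0.9998 from limma. The fifth, on chromosome 3 at 73760942 to 73761328 (2399 kb), had 897.7 in C and 108.8 in SL on array 1, but 31.7 in C and 220.1 in SL on array 2. There the channel with Cy3 was the brighter one on both arrays, whichever group it held.

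The 4 brightest isolated regions were taken by the lower of their C ranks on the arrays, and 3 of them lay within 3 Mb of each other on chromosome 14. The region at 5336357 to 5336749 had C signals of 43110 and 34830 and SL signals of 41000 and 28760. Those at 4313100 to 4313496 and at 7137374 to 7137854 had C signals of 33990 and 25960, and of 32460 and 23720. The fourth was on chromosome 15 at 11333695 to 11334311, with 34010 and 24610. Each of their probes exceeded background clearly in both groups on both arrays, and the mean log2 ratio of SL over C lay between -0.25 and -0.15, with standard errors of 0.31 to 0.32 (n = 2 arrays). A further region, on chromosome 13 at 66080439 to 66080948, was not among these 4 and was picked out after its values were seen. Its C signal of 36860 on array 2 and its SL signal of 62130 on array 1 were the highest of all isolated regions there. The remaining channels read 32320 (C, array 1) and 28630 (SL, array 2). The 4 dimmest, on chromosome 6 at 79544465 to 79545174 and 74927285 to 74927807, on chromosome 1 at 143924851 to 143925149 and on chromosome 14 at 109287959 to 109288246, had no probe well above background in any channel. Their C signals of 10.45 to 10.87 on array 1 are below the lowest signal that was well above background there, 46.5, so no ratio is given.

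A ratio of SL over C was formed from probes that stood clear of background in SL, C or both on each of the arrays, and 440 isolated regions (83.3%) kept at least 2 such probes, against 96.0% of the other regions. Of the 88 left out, 62 kept no probe and 26 kept 1. The regions tested are therefore the brighter ones and do not stand for all 528.

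Isolated regions were shifted in opposite directions on the arrays. The median log2 ratio of SL over C was -0.27 on array 1 and 0.10 on array 2, against -0.01 and -0.03 in the other regions. The isolated regions thus differed by -0.26 (array 1) and 0.13 (array 2), averaging -0.07 ± 0.27 (SD, n = 2 arrays; exact sign-flip p = 1.0), well within the spread between the arrays. Read as Cy5 over Cy3 instead, both arrays were lower in isolated regions, by -0.26 and -0.13, a mean of -0.19 ± 0.10 (SD, n = 2 arrays; exact sign-flip p = 0.5). On array 1 the median was below that of the other regions on 18 of 19 autosomes, chromosome 13 being the exception. On array 2 it was above on 18 of 19, with chromosome 19 as the exception.

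Matching on probe length made these shifts smaller on both arrays, whereas matching on signal did so on array 2 only. On array 1 the median log2 ratio of isolated regions was -0.58 where probes averaged above 56 bases and -0.01 at up to 48 bases, against -0.39 and 0.13 in the other regions. Matched on probe length, the difference was -0.17 on array 1 and 0.09 on array 2. Matched on signal quintile it was -0.30 and 0.05. In the middle quintile of signal the isolated regions stood at -0.56 on array 1, against -0.01 in the others, and at 0.02 against -0.06 on array 2.

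**Figure D4:**
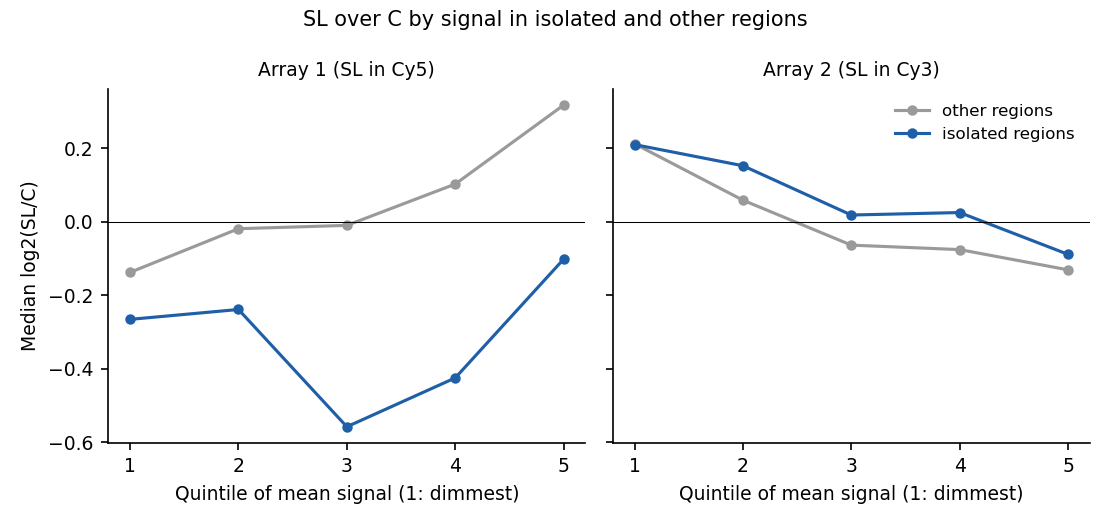
Median log2 ratio of SL over C (vertical axis) by quintile of mean signal (horizontal axis, 1 being the dimmest) for isolated (blue) and other (grey) tested regions, array 1 left and array 2 right. On array 1 the isolated regions lie below the others in every quintile, from -0.27 against -0.14 in the dimmest to -0.10 against 0.32 in the brightest; on array 2 both sets fall from 0.21 in the dimmest quintile to -0.09 and -0.13 in the brightest.

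No isolated region passed the test of SL over C (limma, Benjamini-Hochberg adjusted p under 0.05 over all 18544 regions tested), and 0.0% of all regions did. At an unadjusted p under 0.05 with limma there were 20 isolated regions, all lower in SL, or 4.55% of those tested, where 1.73% of all regions passed in either direction and 1.71% passed as lower. Of these 20, 17 stayed within 1.5-fold on array 2 and 17 had the same sign on both arrays. The median standard error of an isolated region's mean log2 ratio was 0.32. With a trend of the spread on signal 7 isolated regions passed, and with robust moderation 4 did (limma, adjusted p under 0.05). These were 1.59% and 0.909% of the isolated regions tested, where 0.318% of all regions (59) passed with the trend and 0.205% (38) with robust moderation. All of them were lower in SL on array 1 and on array 2, but 6 of the 7 and 3 of the 4 stayed within 1.5-fold on the second.

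As scanned, a change past 1.5-fold with 1 direction on the arrays was seen in 4 isolated regions, all lower in SL (0.909% of those tested, where 0.21% of all regions were lower this way). None was higher, where 0.0216% of all regions were. The first, on chromosome 12 at 41624662 to 41624987, had SL signals of 82.3 on array 1 and 47.9 on array 2 and C signals of 469.4 and 79.7. The SL signal of each of its 3 probes was the lower one on both arrays, and all 3 were well above background in every channel. On array 2, though, its SL signal was not far above 33.7, the lowest SL signal well above background there. The log2 ratios were -2.53 and -0.71, a mean of -1.62 ± 0.41 (SE, n = 2 arrays; limma adjusted p = 0.9998); it passed with the trend (adjusted p = 0.0433) and with robust moderation (0.0046). On chromosome 8 at 66977772 to 66978146, SL was at 34.1 and 28.2 and C at 126.7 and 45.5, a mean log2 ratio of -1.28 ± 0.36, and 1 of 2 probes was well above background in SL on each array.

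Of the remaining pair, both on chromosome 17, the region at 93505566 to 93506210 was not well above background in SL on either array. Its C signals were 84.2 and 44.3, and its measured log2 ratios were -1.29 and -0.65. With SL raised to the lowest well-above-background signal where it lay below it, SL was at least 1.77-fold lower over the arrays, but only 1.29-fold on array 2. The chromosome 8 region was at 1.32-fold on array 2 by the same step, so 2 of the 4 regions stayed past 1.5-fold on both arrays. The region at 59284547 to 59284916 had SL signals of 388.9 and 303.6 and C signals of 631.8 and 465.6, all clear of background. Of the 4 regions it had the closest agreement between arrays, at -0.71 and -0.59, a mean of -0.65 ± 0.31 (SE, n = 2 arrays), but the log2 ratio of 1 of its 2 probes was 0.13 on array 2. With normexp background correction 0 of these 4 stayed past 1.5-fold on both arrays, and 3 of the 4 had C signals of 44.3 to 79.7 on array 2.

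**Figure D5:**
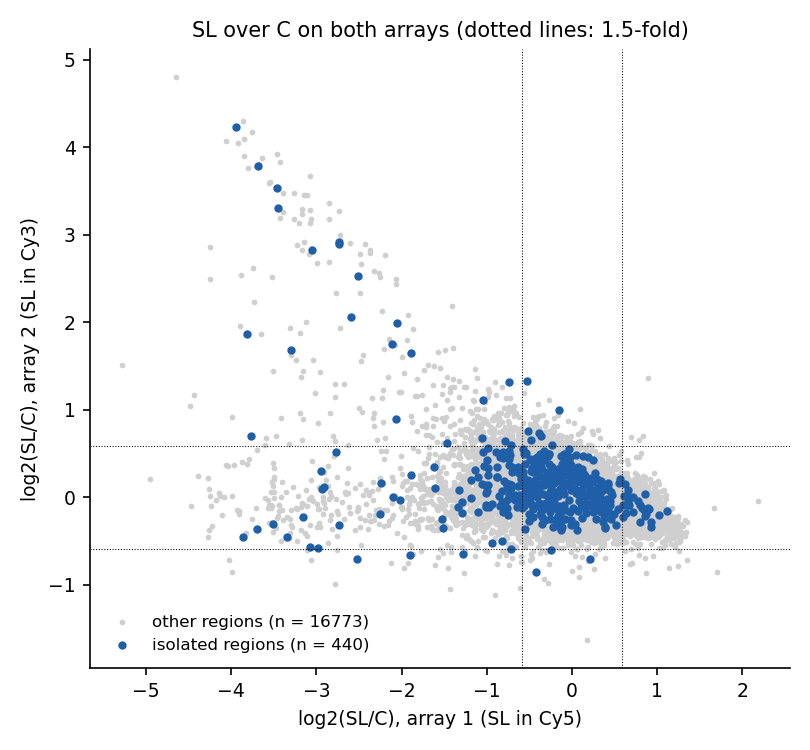
Log2 ratio of SL over C on array 1 (horizontal axis) and array 2 (vertical axis) for 440 isolated (blue) and 16773 other (grey) regions; dotted lines mark 1.5-fold. The 4 isolated regions at the lower left are past 1.5-fold lower on both arrays, and the 22 at the upper left are lower in SL on array 1 and higher on array 2.

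In opposite directions 22 isolated regions were past 1.5-fold on both arrays (5.0% of those tested, where 2.19% of all regions were), and in all 22 Cy3 exceeded Cy5. On chromosome 2 at 110724967 to 110725331 the Cy3 channel read 2491 (C, array 1) and 973.3 (SL, array 2), and the Cy5 channel read 162.8 (SL, array 1) and 52.6 (C, array 2). Its log2 ratio of SL over C was -3.95 and 4.24, so Cy3 was 17.1-fold above Cy5, and the mean log2 ratio of SL over C was 0.14. The next in rank, also with 4 probes each, were on chromosome 6 at 21525174 to 21525725 (-3.69 and 3.79), on chromosome 16 at 79439925 to 79440542 (-3.46 and 3.54) and on chromosome 15 at 52638417 to 52638687 (-3.45 and 3.30). In the chromosome 6 region C on array 2 was at 19.5 with 2 of 4 probes well above background, so the size there is uncertain. Its mean log2 ratio of Cy5 over Cy3 was -3.74, and -2.94 with only probes well above background in all 4 channels, smaller than the -3.50 of the chromosome 16 region and the -3.38 of the chromosome 15 region. Each of the 4 probes had the region's sign on each array in all 4 regions.

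The test of Cy5 over Cy3 called 36 isolated regions, or 8.18% of those tested, where 2.48% of all regions were called (limma, adjusted p under 0.05). This fit gave every region the same spread. All 36 had Cy3 above Cy5 on average, where 2.45% of all regions were called that way and 0.0324% with Cy5 above Cy3. In 25 of the 36 Cy3 was higher on each array, and 17 stayed within 1.5-fold on array 2. Called or not, 215 isolated regions (48.9%) had Cy3 above Cy5 on both arrays, where 29.3% of all regions did. Isolated regions were called more often than others also in comparable signal: in the dimmest quintile 7.93% against 3.48%, in the middle quintile 13.4% against 3.94%, and in the brightest 0.0% of 48 against 0.295%. The called ones had a median probe length of 59.1 bases. Its part in these calls was not tested.

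Agreement in sign between the arrays was low in isolated regions and close to that of the array as a whole: 161 (36.6%) had 1 sign on both arrays, where 38.8% of all regions did. Of them 94 (21.4%) were lower in SL on both arrays, where 21.2% of all regions were, and 67 (15.2%) were higher, where 17.7% were. On array 1 alone, 122 isolated regions were past 1.5-fold lower in SL (27.7%, where 13.1% of all regions were) and 27 were higher (6.14%, where 14.3% were). The 122 had a median log2 ratio of -0.99 there and 0.16 on array 2. On array 2, 82 of these 122 were above zero and 40 below, where the median of all 440 isolated regions tested was also above zero, at 0.10. Past 1.5-fold on array 2 alone were 7 isolated regions lower in SL (1.59%, where 0.464% of all regions were) and 29 higher (6.59%, where 3.36% were). Of these 29, 22 were past 1.5-fold lower on array 1, and no matching share over all regions is given here. These shares describe regions on the same 2 arrays, and no test over regions was made.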

How the data were processed

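The authors cohybridised SL and C pools on 2 arrays of 96645 spots and extracted spot intensity with Agilent Feature Extraction (version 10.5.1.1 per the file headers, 9.1.3.1 per the submitters' processing notes). Per the file headers, the deposited processed intensity is background-subtracted and dye-normalised, with a multiplicative detrend on array 1 only. The authors' deposited log10 ratio and value table equalled the ratio of these signals (table differences up to 0.005), array 2 being turned to SL over C in the table.

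Of 90535 genomic spots 44 with an outlier flag were left out; 90482 probes of 45 to 60 bases remained, in 23058 groups, of which 3693 held 1 probe. A region's signal is the mean log2 processed signal of all its probes. Ratios were turned to SL over C, centred on each array's median and averaged over probes passing the filter. All 18544 regions with 2 such probes were fitted with limma 3.58.1 in R 4.3.3 (lmFit, eBayes, two-sided), which was tested on simulated data. Those simulated arrays were drawn independently, whereas the real log2 ratios correlated negatively between the arrays, so the simulation does not cover this feature. Regions are not replicates: n is 2 arrays. The file headers give both arrays the same slide barcode, and no batch was tested. Signals scanned as the median of spot pixels were used for normexp (offset 50), since the planned mean signal was not used here. Distance bins beyond 300 kb were split after the values were seen.

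The members and lists were chosen with earlier results of these data known. Named regions were those farthest from a neighbour (5), past 1.5-fold the same way (up to 6 per direction), most opposite (4), brightest and dimmest in C (4 each) and nearest the 300 kb limit (2 on each side).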

Additional observations from a re-analysis of the deposited data

How the results depend on the processing

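Isolated regions stayed dimmer than the others under every alternative run. The number of isolated regions became 952 at 200 kb and 242 at 500 kb. Single probes did not count as neighbours in the main run. Counting them left 441 isolated regions, with a difference in median log2 C signal of -2.35. The difference in log2 C signal, -2.57, became -2.29 at 200 kb, -2.25 matched on chromosome and -1.92 matched on probe length; with either array left out it ran from -2.76 to -2.39. It was -2.53 with dim signals raised to the floor and -2.59 without the 9 regions next to a chromosome end, both chosen after seeing the data. The difference in log2 ratio ran from -0.26 to 0.13 with either array left out. The 0 regions called for SL over C became 7 with a trend on signal (59 of all regions) and 4 with robust moderation (38 of all). Past 1.5-fold the same way were 4 of 440 isolated regions (0.909%), where 0.232% of all regions were. Of the 440, the 4 became 14 at a threshold below 1.5-fold, 7 with loess, 0 at 2-fold and 0 with normexp. They became 2 of 395 with at least 3 probes and 2 of 419 with all 4 channels above background. With dim signals raised to the floor, a run chosen after seeing the data, they became 2 of 440. No share of all regions is given for these changed settings, so whether isolated regions stood out under them cannot be told. The 36 of 440 isolated regions called in the dye contrast became 16 of 192 at 500 kb, where 2.48% of all regions were called. The share with 1 sign on both arrays, 36.6%, became 42.3% of 440 with loess and 30.3% of 528 without the filter on dim probes. No share of all regions is given for either run. Fewer or more regions enter at other distances and thresholds; the cause of the other changes was not tested. The ratio within an array already sets SL beside C, so every test of SL over C was paired within arrays. No further block and no dye term was fitted. A difference between dyes that repeated on both arrays therefore entered the spread in the test of SL over C. The 0 calls there and the 36 in the dye contrast are thus not separate results. Which pools each array received is not stated, so the 2 pairs need not be separate pools. Dim signal, the dye difference within the spread and 2 arrays limit what could be resolved.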

Other observations

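Neighbouring isolated regions resembled each other little. Across 196 pairs of adjacent isolated regions, with a median of 791 kb between starts, the C signals of the pair correlated with Pearson's r = 0.08 on array 1 and 0.10 on array 2. For 4287 pairs of adjacent other regions with starts up to 10 kb apart, r was 0.38 and 0.39, and for 3138 pairs at 100 to 300 kb it was 0.04 and 0.06. Pairs share arrays and probe chemistry, so these are descriptions.

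The median spread of probes within an isolated region was close to that elsewhere. The median SD of log2 C signal among the probes of a region was 0.56 on array 1 and 0.64 on array 2 in isolated regions, against 0.55 and 0.58 in the others. Dim probes were kept for these SDs of C signal. No probe was well above background in any channel in 8.71% of isolated regions, against 1.31% of the others, and their spread was not set apart. For the log2 ratio of SL over C it was 0.17 and 0.13, against 0.15 and 0.12.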
